A study of Drosophila melanogaster with 63 samples.

Results

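Females of the wild-type Drosophila melanogaster strain OregonR were kept without food for 24 h and compared with females given yeast. This comparison takes 6 of the 63 arrays of the series, chosen by their title, and each array carries the RNA of starved and of fed flies in its 2 dye channels. Per the labels, flies were raised on standard food at 25 C. Control flies were then placed on yeast paste over filter paper wet with phosphate-buffered saline, and starved flies received the wet paper alone. Both dye orientations were present. No mutation or transgene is named for any of the groups used. The groups set beside it are females starved for 48 h (5 arrays), females given 20% sucrose in buffer for 24 h (5 arrays) and males starved for 24 h (6 arrays), each against yeast-fed flies of the same sex. The labels give neither the age of the flies, nor whether the females had mated, nor how many flies went into each RNA.

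Yeast is the main protein source of Drosophila and sustains egg production. In the ovary, follicle cells surround each growing egg chamber and secrete first the vitelline membrane and then the chorion, which together form the eggshell. Yolk proteins come from the fat body and from follicle cells, and the growth of yolk-filled egg chambers is known to stop when protein is lacking. The fat body also stores glycogen and triglyceride and secretes proteins into the blood, while the midgut makes digestive enzymes.

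The deposited value is a log2 ratio that the submitters merged over both spots of a clone and over all repeat hybridisations of a group. All 6 arrays therefore hold the same value for each gene, the comparison is 1 measurement, and there is no spread between replicates and no test. Higher and lower below describe this value, and a gene is counted where it stood at least 2-fold from the control. The sign is likely starved over fed. This rests on the labels, which say which flies served as control, and on Lsp2, a storage protein abundant in late larvae, which stood at 8.52 at 88 h and 8.26 at 100 h in the larval arrays of the series. As a technical yardstick, the 2 clones of a gene differed by a median of 0.12 and a 95th percentile of 0.54 over 641 genes. That yardstick holds nothing of the variation between animals. The female label cannot be checked from levels, since only ratios were used. Whether the starved and sugar-fed flies were compared with the same control flies is not given. Differences between their ratios are therefore given as a description only.

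Of 9183 measured genes, 26 (0.283%) were at least 2-fold higher and 82 (0.893%) at least 2-fold lower in females after 24 h without food. The median gene lay at -0.01, and 85.07% of genes were within 1.25-fold of the control. At 3-fold the counts were 5 higher (0.0544%) and 36 lower (0.392%). The lower genes included all 16 measured genes of the eggshell lists. The higher genes included 2 genes of lipid synthesis, Cyp4g1, digestive proteases and genes of the eye.

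**Figure D1:**
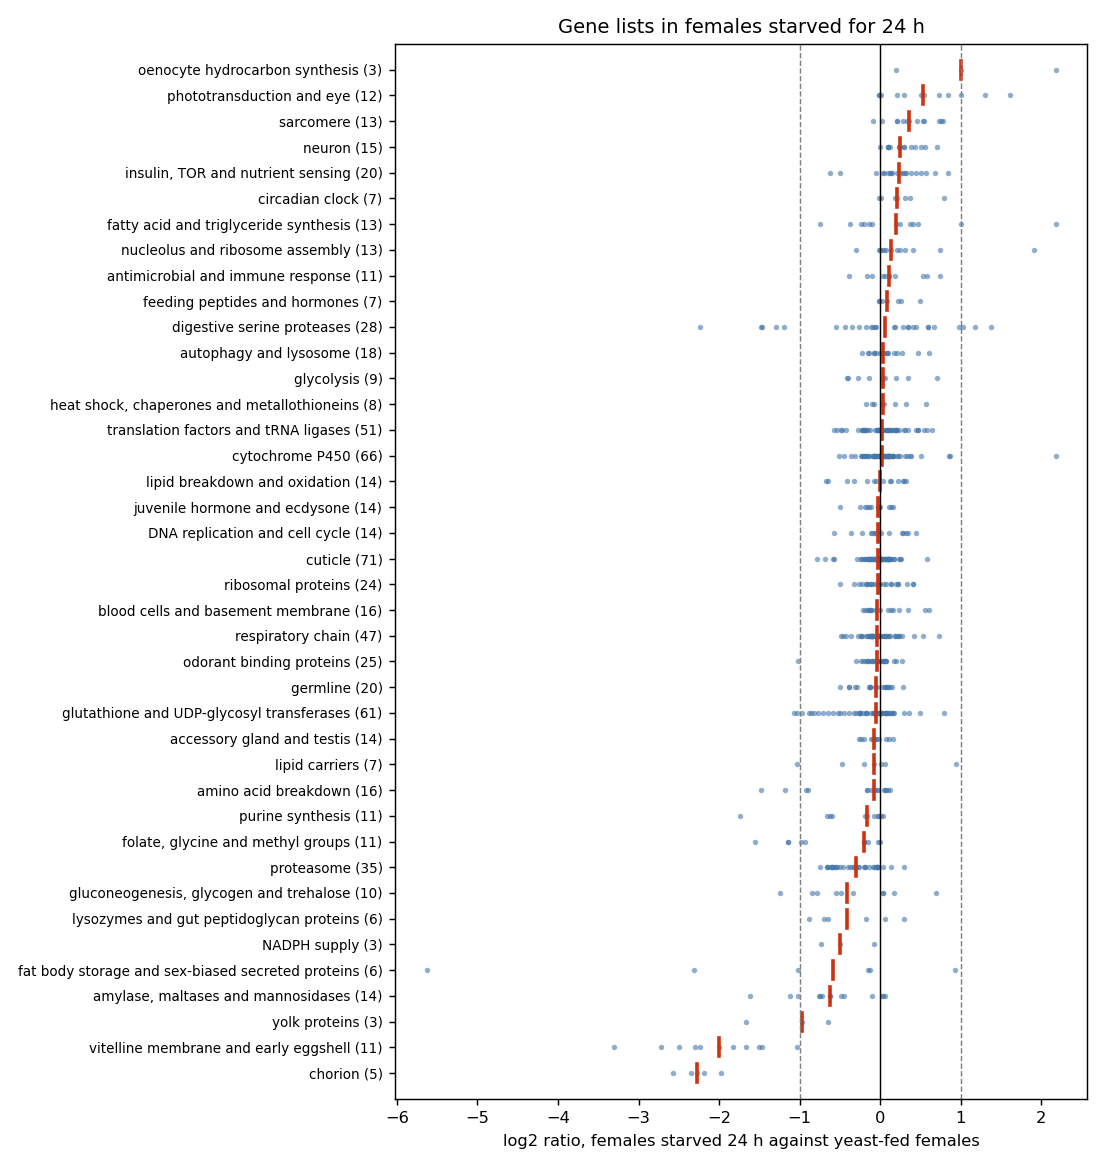
Log2 ratio of starved to yeast-fed females at 24 h for the members of each gene list, with the number of measured members after the list name. Each blue point is a gene, each red mark is the list median, and the dashed lines mark 2-fold. The chorion and eggshell lists lie furthest to the left, with medians of -2.28 and -2.002, and most other lists are centred near 0.

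The measured genes of the eggshell lists were lower in starved females without exception. All 11 measured genes of the vitelline membrane and early eggshell list and all 5 of the chorion list were at least 2-fold lower, where 0.893% of all genes were. Their list medians were -2.002 and -2.28, beside -0.01 over all genes. The lists were chosen with earlier results of these data known, so these counts are a description. RNA came from whole flies, so fewer cells of a type and less RNA per cell cannot be told apart. Vm32E, a vitelline membrane protein gene, stood lowest of the 16 at -3.30, which is 9.87-fold lower. Vm34Ca, of the same family, was at -2.72, Vm26Ac at -1.83 and Vm26Aa at -1.03. The vitelline membrane family thus ranged from the furthest to the nearest value of its list.

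Other early eggshell genes lay within that range. The gene dec, which encodes eggshell proteins secreted by follicle cells, stood at -2.50, and psd, needed to build the vitelline membrane, at -2.30. The neighbouring genes yellow-g and yellow-g2, both active in follicle cells, were at -2.24 and -1.67. Fcp3C, a follicle cell gene, was at -2.002, and Femcoat, another eggshell gene, at -1.47. Each of these genes was thus lower than Vm26Aa. The gene ndl, which encodes the Nudel protease that acts in eggshell formation and in the dorsal-ventral axis of the embryo, was at -1.50. None of the 11 stood beyond 1.25-fold in starved males, where values ran from -0.23 for yellow-g to 0.04 for psd. Spot brightness was not used, so a male ratio near 0 does not tell steady expression from none.

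Chorion genes, which follicle cells amplify and transcribe late in egg formation, were closely grouped. Cp19 stood at -2.57, Cp38 at -2.34, Cp36 at -2.28, Cp16 at -2.19 and Cp7Fc at -1.98. The spread among these 5 genes was narrower than among the early eggshell genes. The 5 lay further from the control at 48 h, at -4.25, -4.30, -3.99, -3.62 and -3.47 in the same order. The chorion median was -3.99 at 48 h and -3.05 in sugar-fed females at 24 h, against -0.11 in starved males. The early eggshell list had medians of -2.34, -2.26 and -0.07 in those groups. At 48 h all 5 chorion genes and 7 of the 11 early eggshell genes were below their value at 24 h, as were 46.6% of all genes. The 4 that were above it were Vm34Ca (-2.34 at 48 h), psd (-1.35), Vm26Ac (-1.37) and ndl (-0.90).

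The yolk protein genes stood nearer the control than most eggshell genes. Yp2 was at -1.67 and was the only one of the 3 at least 2-fold lower. Yp3 was at -0.97 and Yp1 at -0.64. All 3 were lower at 48 h, when Yp2 was at -2.31, Yp3 at -1.38 and Yp1 at -1.45. In starved males they stood between -0.24 and -0.09, all within 1.25-fold.

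General germline and cell division genes did not share the eggshell values. Of 20 measured germline genes none was beyond 1.5-fold, and the median was -0.06, with the lowest, me31B (an RNA helicase of germ granules), at -0.50 and the highest, tud, at 0.29. The 14 genes of DNA replication and the cell cycle had a median of -0.03. PCNA, the sliding clamp of DNA polymerase, was lowest at -0.58 and CycB3, a mitotic cyclin, was highest at 0.44. The 14 accessory gland and testis genes, which females should lack, ran from -0.26 to 0.16.

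The 82 lower genes differed widely in their ratio in starved males. In males, 44 of the 82 stood within 1.25-fold of the control, as 93.0% of all genes did, and 36 were at least 1.5-fold lower, as 1.69% of all genes were. Of the 36, 21 were at least 2-fold lower in males, where 0.566% of all genes were. The limits of this division were chosen after the values were seen. The other 2 genes, fit and GstD9, stood between, at -0.41 and -0.38 in males. None of the 82 was at least 1.5-fold higher in males (0.196% of all genes). In females on sugar 71 of the 82 were at least 2-fold lower (1.12% of all genes), and at 48 h without food 47 were (0.727%).

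**Figure D2:**
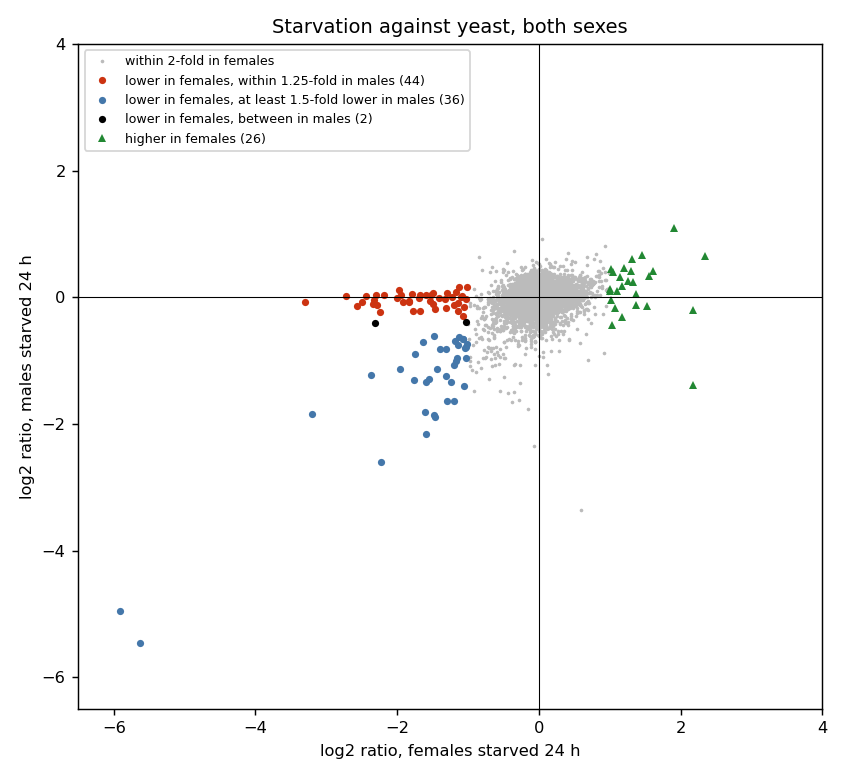
Log2 ratio of starved to fed flies after 24 h in females (horizontal axis) and in males (vertical axis), 1 point per gene. The 44 lower genes near 0 in males form a horizontal band, and the 36 genes lower in both sexes extend down and left to Lsp2 and CG11538. Of the 26 higher genes, 13 lie within 1.25-fold of the control in males, as 93.0% of all genes do.

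Among the 44 genes near the control in males, 16 were the eggshell genes. A further 21 carry only a CG number, a share not counted over all genes. The others include Yp2, the odorant-binding protein gene Obp99a (-1.02) and Muc4B, a mucin-like gene whose 2 clones stood at -1.18 and -1.16. Gagr, a gene descended from a retroviral gag gene, stood at -1.59 in females and 0.03 in males. Sec61beta, a subunit of the channel that moves proteins into the endoplasmic reticulum, was at -1.14 and -0.10. The median of the 44 in females was -1.63 at 24 h and -2.16 at 48 h, and in males it was -0.03. From 24 to 48 h, 33 of the 44 moved further from the control and 11 came nearer, where 46.6% of all genes went lower and 53.4% higher. The 82 genes were chosen by their 24 h value, so these counts are a description.

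The 36 genes lower in both sexes included no gene of the eggshell lists, and 16 of them belong to the metabolism and gut lists. None of the 44 genes near the control in males does. The lists were chosen with earlier results known, and the share of all genes in them was not counted. These numbers are thus a description. The median of the 36 was -1.36 in females and -1.14 in males. In females starved for 48 h it was -0.63, and 32 of the 36 stood nearer the control than at 24 h. The 4 that stood further were CG11538, CG15281, Lsp2 and pug. Females on sugar for 24 h had medians of -1.50 for these 36 genes and -2.02 for the 44.

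**Figure D3:**
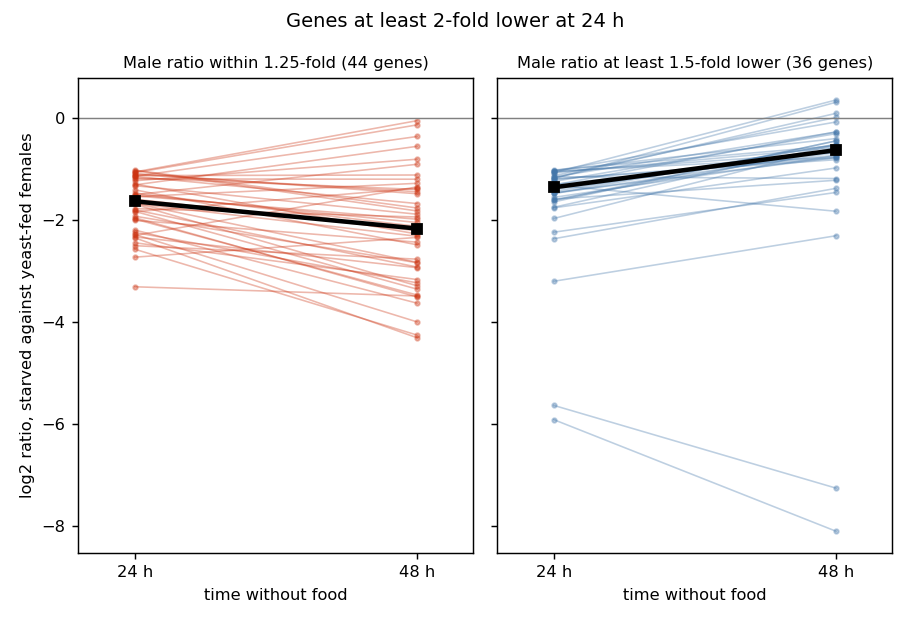
Log2 ratio of starved to yeast-fed females at 24 and 48 h for the lower genes, split by their ratio in males, with 1 thin line per gene and the median as a thick line. The median of the 44 genes near 0 in males goes from -1.63 to -2.16, and that of the 36 genes lower in males from -1.36 to -0.63.

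Some of the lower genes lay next to each other on a chromosome. Among the 80 lower genes that could be placed on the RefSeq map, 29 had another lower gene as a nearest measured neighbour on either side, in 12 runs. Over all 8950 placed genes 1.71% had a lower gene as such a neighbour. Some runs are related copies that may share signal, such as the Jonah and GstD pairs. The longest runs held 4 genes. One on 2L held Vm26Ac, Vm26Aa, psd and CG13992, and one on X held CG15571, CG15570, Femcoat and Muc4B. The chorion genes formed one run of 3 on X (Cp7Fc, Cp36, Cp38) and one of 2 on 3L (Cp19, Cp16). Further pairs were yellow-g with yellow-g2, dec with Ir7c, Jon66Ci with Jon66Cii, and GstD9 with GstD1. Pairs known only by number were CG13113 with CG13114, CG13084 with CG13083, CG7675 with CG14309, and CG15721 with CG12716. Among 24 placed higher genes there was 1 run, of epsilonTry and betaTry, while 0.536% of all placed genes had a higher gene as a neighbour. By chromosome arm, 1.29% of measured genes were lower on X, 1.26% on 2L, 0.283% on 2R, 0.933% on 3L and 0.833% on 3R. The shares that were higher were 0.0678% on X, 0.300% on 2L, 0.339% on 2R, 0.583% on 3L and 0.0877% on 3R. None of the 47 genes on 4 was past 2-fold.

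Lsp2, the larval serum protein of the fat body, was the lowest gene with a name other than a number. It stood at -5.63, which is 49.4-fold lower, and at -7.25 after 48 h, -6.04 on sugar and -5.46 in starved males. CG11538, at -5.91, -8.09, -6.21 and -4.96 in these groups, carries an older synonym of Lsp2 and cannot be separated from it. Counts that include both, such as the 82 lower genes and the 36 lower in both sexes, may thus hold 1 gene 2 times. In the list of fat body storage and sex-biased secreted proteins, fit, Obp99a, Obp99b and Sgp differed between the sexes. The gene fit, a female-specific satiety protein induced by dietary protein, was at -2.31 in females at 24 h, -3.63 at 48 h, -1.69 on sugar and -0.41 in males. Obp99a was at -1.02, with -1.76 at 48 h and 0.16 in males. Obp99b had the opposite order, at -0.15 in females and -1.76 in males. Sgp stood at 0.92 in females and -0.89 in males. Fbp2, a fat body protein gene, was at -0.13.

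Some enzymes that carry 1-carbon units on folate were at least 2-fold lower. All 11 measured genes of the folate, glycine and methyl group list were below 0, as were 51.6% of all genes. Of these 11, 3 were at least 2-fold lower (0.893% of all genes), and the median was -0.21. Shmt, which moves a carbon from serine to folate, stood at -1.55, with -0.73 at 48 h, -1.63 on sugar and -1.29 in males. Nmdmc and pug, both enzymes that interconvert folate forms, were each at -1.15. They differed at 48 h, when Nmdmc was at -0.27 and pug at -1.18. The glycine cleavage genes CG6415 and CG3999 were at -0.99 and -0.94. The 6 remaining genes of the list lay between Sardh, a sarcosine dehydrogenase, at -0.21 and AhcyL1 just under 0. Sam-S, which makes the methyl donor S-adenosylmethionine, was at -0.15.

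Of 11 measured genes of purine synthesis, 1 was at least 2-fold lower and 4 at least 1.5-fold lower, where 2.43% of all genes were, with a median of -0.16. CG11089, named atic in RefSeq synonyms for the enzyme of the last steps to IMP, was at -1.75, between clones at -2.23 and -1.26. Pfas, Gart and Paics, which act earlier in the same pathway, were at -0.66, -0.63 and -0.60. The 4 lowest thus all act between the first step and IMP. The first enzyme of the pathway has 2 genes, and Prat was at -0.19 and Prat2 at -0.03, the latter reaching -1.17 at 48 h. The genes acting after IMP alone, Adss, ras and bur, lay between -0.03 and 0.03. Adsl, which acts both before and after IMP, was at -0.08. Adk1, an adenylate kinase, was at -0.16.

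Amino acid breakdown had 2 of 16 genes at least 2-fold lower (0.893% of all genes) and a median of -0.08. Got2, the mitochondrial aspartate aminotransferase, stood at -1.47, and Got1, its cytosolic form, at -0.89. Hpd, of tyrosine breakdown, was at -1.18 at 24 h but 0.31 at 48 h. Oat, ornithine aminotransferase, was at -0.92 in females and -1.48 in males. The highest member was BckdhA, of branched-chain amino acid breakdown, at 0.12. Most of this list thus lay near the control.

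In glycogen and trehalose metabolism the genes stood on both sides of the control. AGBE, the glycogen branching enzyme, was at -1.24 and was the only one of 10 measured genes past 2-fold. The gene fbp (fructose-1,6-bisphosphatase) was at -0.84, Glyp (glycogen phosphorylase) at -0.78 and UGP (which makes UDP-glucose) at -0.55. At 48 h AGBE was at -0.30, fbp at 0.19, Glyp at -0.10 and UGP at 0.34. All 4 were nearer the control or above it by then. The debranching enzyme gene CG9485 was at -0.49, and Glys, glycogen synthase, stood at -0.34, against -1.06 in males. Pgm1 lay at 0.03, Pepck1, of gluconeogenesis, at 0.04 and Treh, the trehalase gene, at 0.17. Tps1, which makes the blood sugar trehalose, was the one member at least 1.5-fold higher (1.84% of all genes), at 0.70 in females and -0.34 in males. The list median was -0.41 at 24 h and 0.18 at 48 h, with 9 of 10 genes above their 24 h value, as 53.4% of all genes were.

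Glycolysis itself lay near the control, with 9 genes between Gpdh1 at -0.41 and Ald1 at 0.70 and a median of 0.03. Of the 3 genes that supply NADPH, Men (malic enzyme) was at -0.74, Pgd at -0.50 and Idh at -0.07.

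The genes nes, FASN2 and Cyp4g1, all of lipid synthesis, stood among the higher genes. Cyp4g1, the cytochrome P450 of oenocytes that completes the synthesis of cuticular hydrocarbons, was at 2.18, which is 4.53-fold higher. It was at 1.72 after 48 h, 2.05 on sugar and -0.20 in males. The gene nes, an acyltransferase of phospholipids, was also at 2.18 in females, but at 0.57 at 48 h, 0.66 on sugar and -1.39 in males. Of these groups it was thus past 2-fold higher in females starved for 24 h alone, and past 2-fold lower in males. FASN2, a fatty acid synthase of oenocytes, was at 1.00, just inside 2-fold, with 1.33 at 48 h and 0.09 in males. FASN1, which serves the fat body, stood at -0.24, with 0.71 on sugar and -0.62 in males.

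The rest of the lipid genes were closer to the control. Desat1, which puts double bonds into fatty acids and completes the oenocyte list with Cyp4g1 and FASN2, was at 0.20, SREBP, which regulates lipid synthesis, at 0.37, Lpin at 0.40 and bgm, an acyl-CoA synthetase, at 0.47. ACC, which makes malonyl-CoA, was at -0.37 and ATPCL, which supplies acetyl-CoA, at -0.74. No member of the lipid breakdown list (14 genes, median -0.01) was past 2-fold. The lipases mag and bmm were at -0.65 and -0.41, and scu, a mitochondrial dehydrogenase, at -0.68. The highest were Acox57D-p, an acyl-CoA oxidase, at 0.31 and whd, the carnitine palmitoyltransferase, at 0.30. The lipid droplet proteins Lsd-2 and Lsd-1 were at 0.28 and 0.22.

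Of 7 lipid carriers, Acbp2, an acyl-CoA binding protein, was at -1.03 at 24 h and -0.08 at 48 h. Apoltp, which loads lipid onto blood lipoproteins, was at 0.94 at 24 h, 1.95 at 48 h and 0.81 in males. Npc2a stood at -0.48, Mtp at -0.21, Fatp1 at -0.08 and Npc2b at 0.06. The apolipoprotein gene apolpp was at 0.00 in females and -0.92 in males.

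Digestive serine proteases were divided by family. Near-identical members can share signal on spotted clones, so these genes are uncertain as separate genes. Of 13 Jonah proteases, 5 were at least 2-fold lower (0.893% of all genes) and 1 higher (0.283%), and the median was -0.44. Jon25Bi was at -2.23, Jon25Biii at -1.48, Jon66Ci at -1.46, Jon99Ci at -1.30 and Jon66Cii at -1.19. Jon74E was at 1.37, against -0.13 in males. By contrast, all 11 trypsins were above 0, as were 48.4% of all genes, with a median of 0.59. The trypsins epsilonTry and betaTry were at 1.17 and 1.02, and alphaTry, just outside 2-fold, was at 0.98.

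For the 28 digestive proteases together, the female ratio lay above the male ratio in 28 of 28, as it did in 50.7% of all genes. The median difference was 0.63. In males the Jonah proteases had a median of -1.49, with 8 of 13 at least 2-fold lower (0.566% of all genes). The trypsins ran from -0.57 to 0.08 in males, with a median of -0.22. Females on sugar had medians of -0.71 for the Jonah proteases and 0.61 for the trypsins. At 48 h without food the medians were -0.41 and 0.77. By then 26 of the 28 genes were above their 24 h value, as were 53.4% of all genes. Jon25Bi was then at -1.46 and alphaTry at 1.42.

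**Figure D4:**
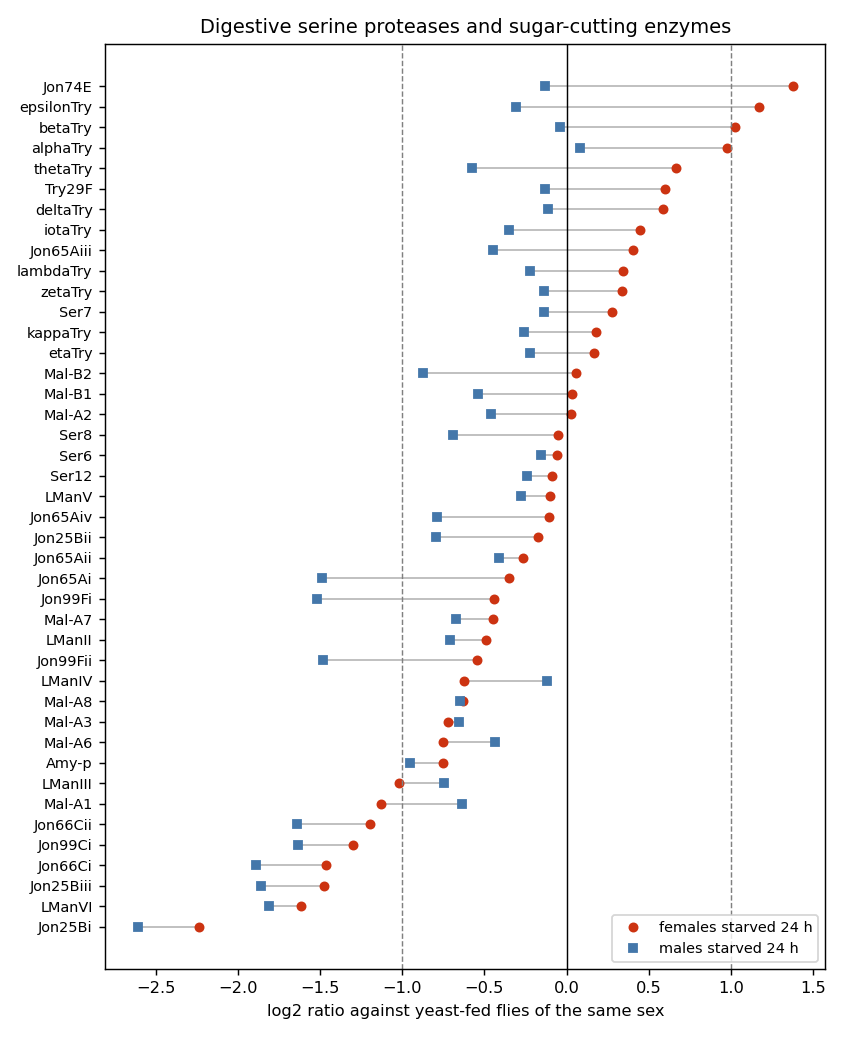
Log2 ratio of starved to yeast-fed flies at 24 h for 28 digestive serine proteases and 14 amylase, maltase and mannosidase genes. Females are circles and males are squares, with a line joining both. The female value lies to the right of the male value for all 28 proteases and for 9 of the 14 other genes. The trypsins lie above 0 in females, while Jon25Bi is lowest in both sexes.

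Carbohydrate-digesting enzymes had medians below 0 in both sexes. Of 14 genes of the amylase, maltase and mannosidase list, 3 were at least 2-fold lower (0.893% of all genes) and 8 at least 1.5-fold lower (2.43%). The median was -0.63 in females and -0.65 in males. LManVI, a lysosomal mannosidase gene, was at -1.61, LManIII at -1.02 and the maltase Mal-A1 at -1.13. Amy-p, an amylase gene, was at -0.75. The highest were Mal-B2 at 0.06, Mal-B1 at 0.03 and Mal-A2 at 0.02. At 48 h the list median was -0.01, with Mal-A1 at 0.01 and LManVI at -0.45, whereas Mal-B2 was at -1.17. Of the lysozyme and gut peptidoglycan genes, PGRP-SC2, which dampens the immune response to gut bacteria, was at -0.88, LysX at -0.70 and LysE at -0.65. The others were LysS at -0.18, PGRP-SC1a at 0.05 and LysP at 0.30. LysX and LysE stood at 0.66 and 0.68 at 48 h. All 6 genes of this list were above their 24 h value then, as were 53.4% of all genes.

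**Figure D5:**
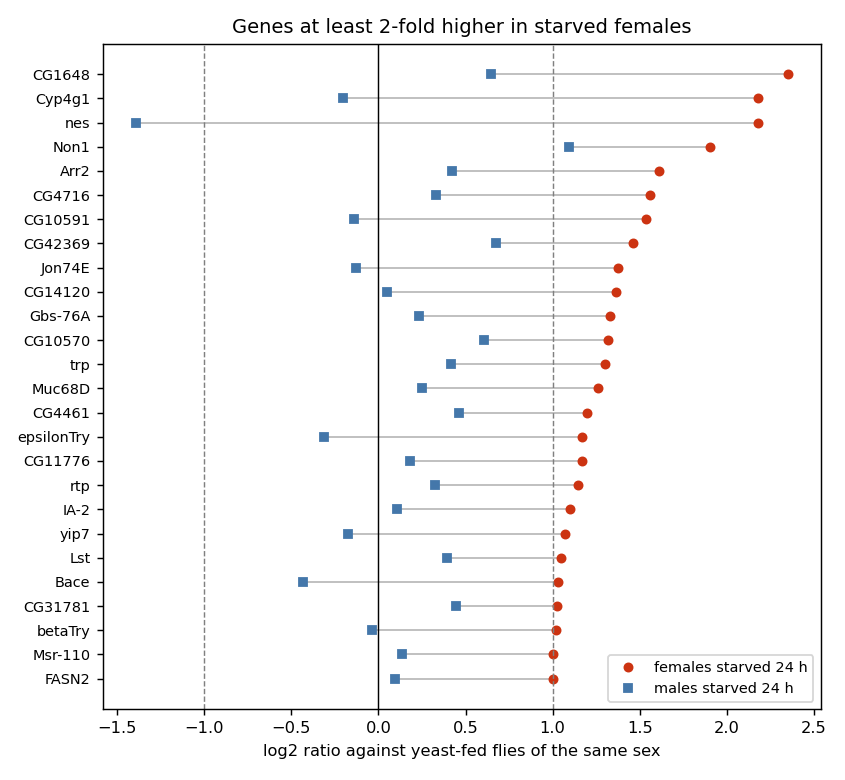
Log2 ratio of starved to yeast-fed flies at 24 h for the 26 genes at least 2-fold higher in females, with females as circles and males as squares and a line joining both. Non1 is the only gene past 2-fold higher in males, at 1.09, and nes lies furthest below in males, at -1.39.

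Few of the 26 higher genes were past 2-fold in males. In males 4 of the 26 were at least 1.5-fold higher (0.196% of all genes). Among these 4, Non1 alone was at least 2-fold higher, where 0.0218% of all genes were. Within 1.25-fold in males were 13 of the 26, as 93.0% of all genes were, and nes was at least 2-fold lower. Among females on sugar 20 of the 26 were at least 2-fold higher (0.391% of all genes), and at 48 h without food 20 were (1.24%). CG1648 was the highest gene at 2.35, with 2.11 at 48 h, 2.54 on sugar and 0.64 in males. Non1, a nucleolar GTP-binding protein of ribosome assembly, stood at 1.90 in females. Of the 26, 25 rest on 1 clone.

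Among the higher genes were 2 of the eye list. Arr2, the main arrestin of photoreceptors, was at 1.61, and trp, the light-activated calcium channel, at 1.30. Of genes in no list, rtp, which encodes the photoreceptor protein retinophilin, was at 1.15. Lst, which encodes limostatin, a fasting hormone that restrains insulin release, was at 1.05, with 0.89 at 48 h and 0.39 in males. IA-2, a phosphatase-like protein of dense core vesicles, was at 1.10. Of the 12 genes of the eye list 10 were above 0 (48.4% of all genes) and 2 were at least 2-fold higher (0.283%). The list median was 0.53 in females and 0.14 in males. The channel gene trpl lay just outside 2-fold at 1.00 (0.997) and Arr1 was at 0.85, while rdgA, rdgB and rdgC lay between -0.02 and 0.01.

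The other higher genes were of varied kinds. Gbs-76A, which targets a protein phosphatase to glycogen, was at 1.33 with 1.16 at 48 h and 0.23 in males. The mucin gene Muc68D was at 1.26, the serine protease yip7 at 1.07 and the aspartic protease Bace at 1.03, which was at -0.43 in males. CG4461, listed as Hsp20 among its synonyms, was at 1.20, and Msr-110 was at 1.00, just inside 2-fold. The remaining higher genes carry only a number, among them CG4716 (1.56), CG10591 (1.53), CG42369 (1.46), CG14120 (1.37), CG10570 (1.32), CG11776 (1.17) and CG31781 (1.02, between clones at 0.76 and 1.29).

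The muscle and nerve lists had medians above 0, with no member past 2-fold. Of 13 measured sarcomere genes 12 were above 0 (48.4% of all genes) and 3 were at least 1.5-fold higher (1.84%). The sarcomere median was 0.35 in females at 24 h, 0.88 at 48 h and 0.00 in males. Mlp84B, a muscle LIM protein, was at 0.77, Zasp52 at 0.75 and bt, the projectin gene, at 0.73. Clones of 1 gene were far apart here, with sls between 0.21 and 1.27 and Prm between 0.12 and 0.95. All 13 were above their 24 h value at 48 h, as were 53.4% of all genes. Of 15 neuron genes 14 were above 0 (48.4% of all genes), with a median of 0.24. The microtubule protein gene futsch was at 0.71, 7B2 at 0.56, Appl at 0.51 and the prohormone convertase gene amon at 0.43.

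No gene of the nutrient-sensing list was past 2-fold. Of 20 measured genes of insulin and TOR signalling 17 were above 0 (48.4% of all genes) and 2 were at least 1.5-fold higher (1.84%). The list median was 0.23 in females and 0.04 in males. Lk6, a kinase that phosphorylates a translation factor, was at 0.84, and InR, the insulin receptor, was at 0.68 in females and 0.51 in males. The transcription factor genes cbt and sug were at 0.57 and 0.50, and on sugar at 1.00 and 0.92. The lowest were tobi, a glucosidase gene that responds to insulin-like peptides and adipokinetic hormone, at -0.63 and the insulin-like peptide gene Ilp2 at -0.49. AkhR, the receptor for adipokinetic hormone, which mobilises fat, was at 0.49 at 24 h and 1.03 at 48 h. Of 7 clock genes 6 were above 0 (48.4% of all genes). The 7 were tim at 0.80, Pdp1 at 0.37, cwo at 0.31, Clk at 0.21, cry at 0.18, per at 0.01 and cyc at -0.02. The hour of collection is not given. The 14 hormone genes for juvenile hormone and ecdysone ran from Hr96 at -0.50 to EcR at 0.16.

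Proteasome genes lay mostly below 0 by less than 2-fold. Of 35 members 32 were below 0 (51.6% of all genes) and 7 were at least 1.5-fold lower (2.43%). None was past 2-fold, and the median was -0.30 in females and -0.14 in males. The ATPase Rpt5 of the cap was lowest at -0.74, followed by Rpn5 at -0.66, the copy Prosalpha1R at -0.66 and the core subunit Prosbeta4 at -0.65. Without the 11 related copies, which carry R or T after the subunit name, 23 of 24 genes were below 0 and the median was -0.43 in females and -0.20 in males.

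The machinery of translation and respiration lay near the control. The 24 measured ribosomal protein genes ran from RpS18 at -0.49 to RpL7-like at 0.41, with a median of -0.03 and none past 1.5-fold. The 51 translation factor and tRNA ligase genes had a median of 0.03, with eIF1 at -0.58 and eIF3m at 0.65. Of 13 nucleolar genes only Non1 was past 2-fold, and the RNA helicase gene kz was next at 0.74. The 47 respiratory chain genes had a median of -0.04, from ND-ACP at -0.49 to ND-51 at 0.73. The 18 autophagy and lysosome genes had a median of 0.04, with Atg17 at 0.60 and Atg2 at 0.47, parts of the autophagy machinery, and CtsB, a lysosomal protease, lowest at -0.22.

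Detoxification genes differed by family. Of the 22 GstD and GstE glutathione transferases 18 were below 0, as were 51.6% of all genes. Their median was -0.51 in females and -0.38 in males. GstD1 was at -1.07, GstD9 at -1.03, GstE9 at -0.97 and GstE3 at -0.89. These are related copies that may share signal. The 31 UDP-glycosyltransferases had a median of -0.01. Of 66 cytochrome P450 genes only Cyp4g1 was past 2-fold, and the median was 0.03, with Cyp6w1 at 0.87, Cyp313a1 at 0.86 and Cyp309a1 lowest at -0.51.

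The measured genes of the immune, blood cell and heat shock lists stayed within 2-fold at 24 h. CG4461, listed as Hsp20 among its synonyms, is in none of these lists and stood at 1.20. Among 11 immune genes the transcription factors Dif and Rel were at 0.75 and 0.54 and the antifungal peptide gene Drs at 0.58, while the antibacterial DptB was at 0.19 at 24 h and 1.86 at 48 h. PGRP-SB1 was lowest at -0.39. The 16 blood cell and basement membrane genes had a median of -0.04, with LanA at 0.60 and SPARC at 0.56. The median was 0.34 at 48 h, when the collagen IV genes vkg and Col4a1 were at 1.31 and 1.17. The 8 heat shock and metallothionein genes had a median of 0.03, with MtnA at 0.57 and at 1.94 after 48 h. Of 71 cuticle genes none was past 2-fold, with Cpr30B at -0.79 and Cpr67B at 0.58. Of 25 odorant-binding protein genes only Obp99a was past 2-fold.

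Of the 82 lower genes 35 carry only a CG number, and 1 of them (CG11089) is a member of a list. Of the 35, 21 stood within 1.25-fold in males, as 93.0% of all genes did. The share of all measured genes that carry only a CG number was not counted. The lowest after CG11538 were CG10621 at -3.20, with -1.85 in males, CG15570 at -2.44, CG3699 at -2.36, with -1.22 in males, and CG13114 at -2.33. CG9119 was at -1.97, with -0.57 at 48 h and -1.14 in males. These few show both male values near 0 and male values far below it.

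Of the numbered genes near the control in males, CG13084 (-1.95) and CG13083 (-1.83) are neighbours on 2L, as are CG13113 (-1.77) and CG13114, and CG13992 (-1.23) lies beside psd. Between -1.92 and -1.50 stood CG11381 (-1.92), CG31928 (-1.80), CG31926 (-1.69), CG12716 (-1.54), CG15721 (-1.52) and CG1077 (-1.50). Nearer the control were CG14834 (-1.40), CG14309 (-1.32), CG5885 (-1.31), CG4009 (-1.29), CG15571 (-1.14), CG11585 (-1.12), CG4066 (-1.10), CG11425 (-1.07) and CG7675 (-1.06). None of these is assigned a role here. The other numbered genes lower in both sexes were CG18180 (-1.59), CG7322 (-1.44), CG5793 (-1.40), CG15281 (-1.31), CG13138 (-1.31), CG31075 (-1.20), CG13323 (-1.07) and CG6277 (-1.03).

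Several named lower genes outside the groups above were also lower in males. Had1 was at -1.76 in females and -1.31 in males, and smp-30, a calcium-binding protein gene named for a mammalian senescence marker, at -1.60 and -1.34. Cht9, a chitinase gene, was at -1.64 and -0.71. Vha68-3, a subunit copy of the vacuolar proton pump, was at -1.18 at 24 h and 0.09 at 48 h. Aos1, a subunit of the enzyme that activates the SUMO modifier, was at -1.05. CG16758, which rests on 4 clones, was at -1.04. The receptor gene Ir7c and Jhbp5, at -1.19 and -1.08, stood near the control in males.

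Values on both sides of the 2-fold limit were close together. Just inside on the lower side were LManIII (-1.02), Obp99a (-1.02), Vm26Aa (-1.03), CG6277 (-1.03) and GstD9 (-1.03), and just outside were l(2)34Fc (-0.998), CG6415 (-0.99), CG18682 (-0.97), GstE9 (-0.97) and CG9331 (-0.97). Just inside on the higher side were FASN2 (1.00), Msr-110 (1.00), betaTry (1.02), CG31781 (1.02) and Bace (1.03), and just outside were trpl (0.997), CG14629 (0.99), alphaTry (0.98), CG5773 (0.97) and CG16826 (0.96). Whether such a gene is counted rests on differences far smaller than the yardstick between clones.

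The female ratio was at least 2-fold above the male ratio in 39 genes (0.425%) and below it in 51 (0.556%) of 9178. The furthest above were CG15879 (3.95), nes (3.57), Cyp4g1 (2.38), CG11247 (2.28), Sgp (1.81), CG1648 (1.71), CG12374 (1.68) and CG10591 (1.68). CG11247 rests on different clones in the sexes. The difference for CG15879 comes mostly from males, at -3.36, against 0.60 in females. The furthest below were Vm32E (-3.23), Vm34Ca (-2.75), CG15570 (-2.46), Cp19 (-2.44), dec (-2.42), psd (-2.33), CG13114 (-2.29) and Cp38 (-2.23). These 8 are eggshell genes and 2 genes known by number.

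Few genes were far apart between females without food and females on sugar at 24 h. The starved ratio was at least 2-fold above the sugar ratio in 6 genes (0.0653%) and below it in 5 (0.0545%) of 9182. Those above were nes (1.52), CG9698 (1.29), PGRP-SC1a (1.22), TwdlD (1.21), CG8100 (1.05) and naz (1.02). PGRP-SC1a was at 0.05 without food and -1.17 on sugar. Those below were CG7798 (-2.47), CG13138 (-1.25), CG9377 (-1.05), CG5773 (-1.05) and CG17764 (-1.02). CG7798 was at 0.27 without food and 2.74 on sugar, and CG13138 at -1.31 and -0.06. The next below was FASN1 (-0.95). The starved minus sugar difference had a median of 0.78 for the 5 chorion genes and 0.30 for the early eggshell list. Whether both groups shared control flies is not given, so all these differences between ratios are a description.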

How the data were processed

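Spotted 2-channel arrays were used, with 6 arrays of females starved for 24 h and 3 further adult groups beside them. Every array was read in 3 scans per the labels, and the authors merged both spots of a clone and all repeat hybridisations into 1 deposited value, a log2 ratio. For background correction, normalisation and choice of scan, no method is given in the sources used here. The base was read from the values: 2 raised to their size had 6 decimals in 100% of values (within 0.05 of the last decimal). All 12054 clones had equal values on their 2 spots.

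Each array column was used once per group. Clones were named by the platform annotation, updated through RefSeq (assembly Release 6 plus ISO1 MT) by gene identifier (9781 clones) or accession (86), with 246 kept by symbol alone. The 1941 clones without 1 symbol were left out. Clones of a gene were summarised by their median, giving 9183 genes, of which 8415 rest on 1 clone. Genes next to each other are nearest measured neighbours on the RefSeq map. No model was fitted, since each group is 1 value; the limma test planned for separate array values was not run. The steps were tested on simulated data. Python 3.11.15, numpy 2.4.6 and pandas 2.3.3 were used.

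The members, the lists and the rules were chosen with earlier results of these data known. The text names all genes at least 2-fold from the control or summarises them, all members of short lists or their range, the highest and lowest of longer lists and the largest differences from males and from sugar. The cytochrome P450 pattern was narrowed after matching, because it had taken in a cyclophilin. No sequence is shown, since the tables used hold none. Settings tried were the mean over clones, centring, naming by identifier only, genes with at least 2 clones and thresholds of 1.5-fold and 3-fold. The number of arrays limits the precision.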

Additional observations from a re-analysis of the deposited data

Results flagged for a closer look

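A few genes were at least 1.5-fold from the control in opposite directions in starved females and starved males at 24 h. The female minus male difference was 3.95 for CG15879 (0.60 in females, -3.36 in males), 3.57 for nes (2.18 and -1.39), 1.81 for Sgp (0.92 and -0.89), 1.68 for CG12374 (0.69 and -0.99) and -1.48 for CG9377 (-0.84 and 0.64). Each sex is 1 merged value, so the difference was not tested.

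Some clones without a single gene symbol also stood at least 2-fold from the control. Of 1941 such clones, 20 did so in females starved for 24 h, 8 higher (0.412%) and 12 lower (0.618%). Among the 9183 measured genes the shares were 0.283% and 0.893%. The clones without a single symbol ranged from -3.38 to 1.62, with a median of 0.07. No separate control arrays exist for this count.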

How the results depend on the processing

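The counts of genes depended on the threshold and on the clones used. At 1.5-fold 169 genes were higher and 223 lower, at 3-fold 5 and 36, and among the 768 genes with at least 2 clones 1 and 4 at 2-fold, a smaller set by construction. The mean over clones gave 26 and 82, centring on the median gene 27 and 82, and naming by identifier only 24 and 80. All 40 list medians, and all 108 genes past 2-fold where they were measured, moved by less than the median difference between clones (0.12) under these 3 settings. For most of the 108 genes this was fixed beforehand. Of the 82 lower genes 78 rest on 1 clone, as do 25 of the 26 higher ones. The mean over clones could not move those genes, and naming by identifier only keeps or drops them. Centring shifts every gene by the same small amount. No paired analysis was possible because all arrays of a group hold 1 merged value. Leaving out each array and a replicate block could not be run for the same reason. Spot brightness over background was not used, so the precision of dim genes is unknown.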
